A study of Mus musculus with 6 samples.

Results

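The genes described here are 10 Eph receptors and ephrins that are known from the intestinal crypt and its tumors: Ephb1, Ephb2, Ephb3, Ephb4, Ephb6, Efnb1, Efnb2, Efnb3, Epha2 and Efna1. They were chosen by name as a family, with earlier results of these data known, and all 10 were found among the 21966 genes of the deposited table, which holds 22 genes of the family in all. By RNA-seq, primary tumor cells with PID, an inhibitory peptide of the Group I p21-activated kinases (Paks), were compared with cells without it. PID+ cells came from adenomas of CDX2P-NLS-Cre;APCΔ/+;ROSA26-PID mice and PID- cells from those of CDX2P-NLS-Cre;APCΔ/+ mice. Both groups thus carry the Cre and the deleted Apc allele, and the peptide is tagged with GST and expressed from the Rosa26 locus once Cre has removed a stop cassette. Cre is driven by the CDX2 promoter and acts in gut epithelium, mostly that of the colon, and the Cre and APC strains were C57BL6/J. 3 primary lines were established for each genotype. The labels number the PID+ samples 4, 7 and 26 and the PID- samples 1, 2 and 3, and call the latter normal and untreated. The study numbers its PID- lines otherwise, so it is not known which line each PID- sample is. In the methods, the read sets of a condition are 3 replicated sequencing runs merged into 1 alignment, from which CuffDiff calculated FPKM (fragments relative to the size of the library and the length of the transcript). Each gene therefore had 1 pooled FPKM per condition with an interval from CuffDiff's own error model, and no difference below has a replicate check or a p-value. Levels of different genes are compared as FPKM, which is per length. Changes are log2 ratios of FPKM + 1 in PID+ over PID- cells, a scale that understates the change of low genes. From the steps between low values, the FPKM equal to 1 read was estimated to be 1.36 times larger for PID+ than for PID- cells. Depth and the authors' scaling both enter that number, and the depth on its own is unknown.

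Eph receptors are receptor tyrosine kinases that are activated by ephrins on the surface of a neighbouring cell, and the ephrins signal back into the cell that carries them. EphA receptors mainly bind the A-type ephrins, which are anchored by a lipid, and EphB receptors mainly bind the B-type ephrins, which span the membrane. In the intestine, β-catenin and TCF drive EphB2 and EphB3 at the crypt bottom, whereas ephrin-B1 and ephrin-B2 are higher toward the differentiated cells, and the repulsion between receptor and ligand keeps the cell types in place.

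Epha2 and Efnb2 led the family in both conditions, and the genes with a 2-fold or larger deficit in PID+ cells were the B-type ephrins Efnb1 and Efnb2 and Ephb6, a receptor without kinase activity. On the FPKM + 1 scale, none of the 10 genes was at least 3-fold higher or at least 3-fold lower in PID+ cells. This count depends on the scale: without a pseudocount Efnb1 was 3.22-fold and Ephb6 3.25-fold lower. At least 3-fold lower were 2 genes with a pseudocount of 0.1 (Efnb1 and Ephb6) and 2 with Gapdh set equal between the conditions (Efnb1 and Efnb2). The calls over all genes rose as well, from 377 lower as deposited to 795 with that pseudocount and 662 with equal Gapdh. Among the 11035 genes of the table that could reach this fold, 2.08% were at least 3-fold higher and 3.42% at least 3-fold lower as deposited, on the FPKM + 1 scale. At 2-fold, 3 of the 10 genes (Efnb1, Efnb2 and Ephb6) were lower and 0 were higher, against 7.03% lower and 6.16% higher among the 11785 genes that could reach 2-fold. Ephb1 and Efnb3 were too low to reach either fold, and Ephb6 could reach 2-fold only through its level in PID- cells. The deposited intervals of the conditions overlapped for all 10 genes, and they were apart for 1.43% of the genes that could reach 3-fold. No test of the list against the table was run. Fewer cells of a type and less RNA per cell cannot be told apart in bulk values, here or below. Of the 10 log2 changes 5 were above 0 and 5 below 0, with a median of 0.00, beside 0.00 for all 21959 genes with a usable status in both conditions.

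**Figure D1:**
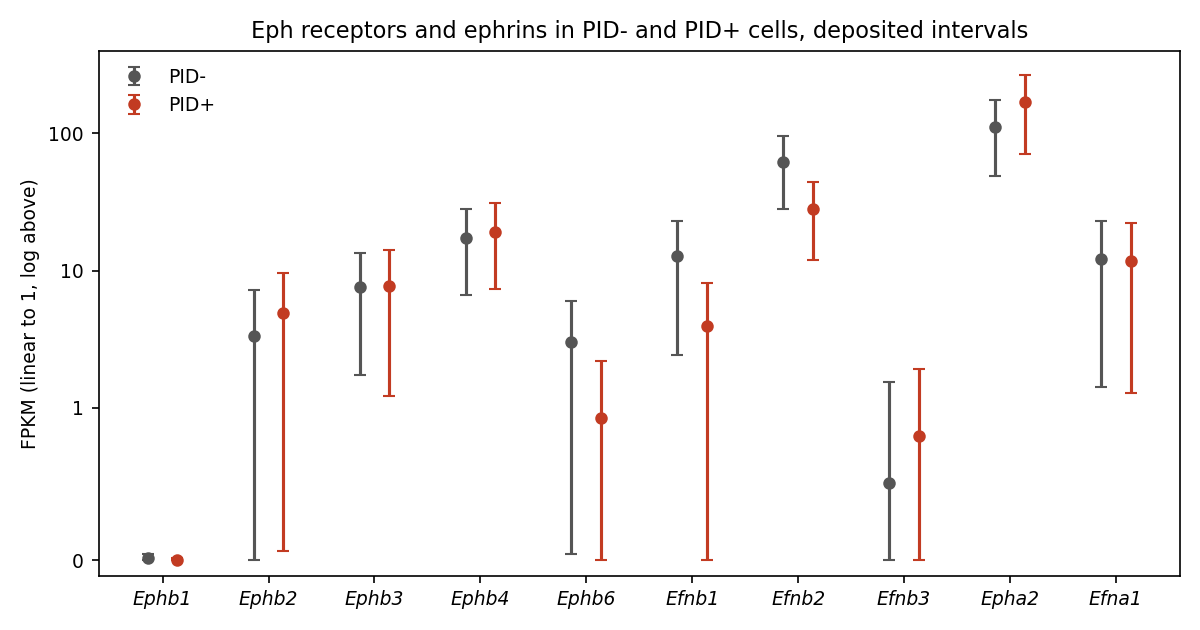
FPKM of the 10 genes in PID- (grey) and PID+ (red) cells, on an axis that is linear up to 1 and logarithmic above. Points are the pooled values per condition and bars the deposited intervals, which overlap for every gene shown; Epha2 has the highest point and Ephb1 the lowest in both conditions.

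Efnb2, which encodes ephrin-B2, a ligand of EphB4 and of EphB2 and EphB3, was the most abundant ephrin in both conditions. Efnb2 (ENSMUSG00000001300.12, on chromosome 8 of GRCm38, 8617434 to 8661242) measured 28.0 FPKM in PID+ cells with an interval from 12.0 to 44.0, and 62.0 in PID- cells with an interval from 28.0 to 96.0. The level was thus 2.22-fold lower in PID+ cells, for a log2 change of -1.12, and the bounds allow a ratio of PID+ to PID- from 0.124 to 1.57. Non-coding genes, E230020D15Rik among them, overlap Efnb2 in the annotation, and the library kit does not mark strand, so reads from them cannot be told apart from its own.

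Efnb1 encodes ephrin-B1, the ligand whose loss disturbs the sorting of cells along the crypt axis. Efnb1 (ENSMUSG00000031217.8, chromosome X, 99136130 to 99148991) measured 3.93 FPKM in PID+ cells (interval 0 to 8.17) and 12.7 in PID- cells (interval 2.43 to 22.9). This was the lowest log2 change among the 10 genes, -1.47. On the FPKM without a pseudocount the level was 3.22-fold lower, and with a pseudocount of 0.1 the log2 change was -1.66, past 3-fold. Genes on chromosome X had a median log2 change of -0.45 (286 genes averaging 5 FPKM or more), and with it subtracted the change of Efnb1 was -1.02. Efnb1 was the ephrin with the fourth highest position in the family in PID- cells, where it lay behind Epha2, Efnb2 and Ephb4, and it was in position 12 of 22 in PID+ cells. Efnb3, the ligand ephrin-B3 best known from the nervous system, stayed under an FPKM of 1, with 0.815 in PID+ against 0.510 in PID- cells and intervals from 0 to 1.91 and from 0 to 1.54.

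B-type ligands exceeded the EphB receptors in PID- cells, and these 2 sums were level in PID+ cells. The receptor sum leaves out Epha4, which binds ligands of both types and had 18.1 FPKM in PID+ against 12.1 in PID- cells. That the sums were level thus depends on which receptors are counted. The FPKM of Efnb1, Efnb2 and Efnb3 summed to 32.7 in PID+ against 75.2 in PID- cells. That of the 5 EphB receptors summed to 32.7 in PID+ against 31.3 in PID- cells, a ratio of 1.05 as deposited that became 0.974 with equal total FPKM and 0.678 with equal Gapdh. The ligand sums had a ratio of 0.435 as deposited and one from 0.282 to 0.443 under the other scalings. Ligand over receptor was therefore 0.999 in PID+ against 2.40 in PID- cells, a ratio that the scaling between conditions does not touch. For the receptor and ligand known from vessels, Efnb2 over Ephb4 was 1.46 in PID+ against 3.59 in PID- cells. For Efnb1 alone, the ratio to the sum of Ephb2 and Ephb3 was 0.313 in PID+ against 1.16 in PID- cells. It leaves out Efnb2, also a ligand of these receptors, which was at 28.0 and 62.0 FPKM, above Efnb1 in both conditions. Each of these ratios was lower in PID+ cells, and none has an error that samples could give. Efnb2 made up 85.5% of the B-type ligand sum in PID+ and 82.5% in PID- cells, so the ligand sum mostly followed that gene.

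**Figure D2:**
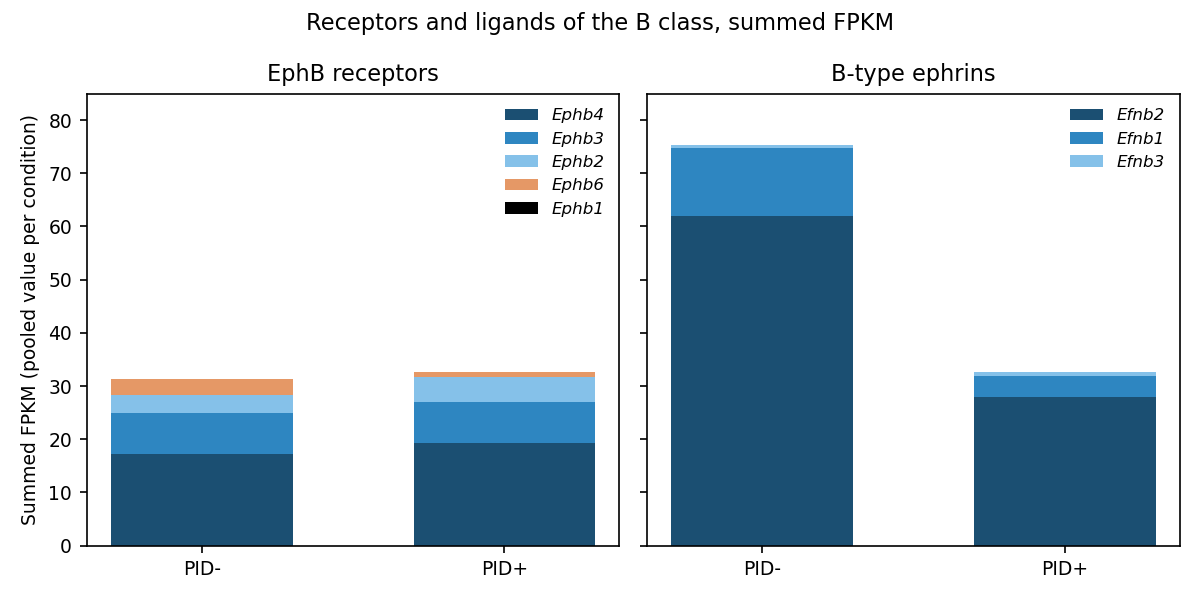
Stacked bars of the FPKM of the 5 EphB receptors (left) and the 3 B-type ephrins (right) in PID- and PID+ cells, 1 pooled value per gene and condition, without error bars. The receptor bars reach 31.3 and 32.7 and the ligand bars 75.2 and 32.7.

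The EphB receptors of the crypt bottom differed between the conditions by less than 2-fold. Ephb2 (ENSMUSG00000028664.11, chromosome 4, 136647539 to 136835988), a receptor of the crypt bottom that is often lost when human colorectal tumors progress, measured 4.87 FPKM in PID+ cells (interval 0.0585 to 9.69) and 3.34 in PID- cells (interval 0 to 7.23). Its log2 change was 0.44, and -0.060 when Gapdh was set equal between the conditions, a scaling that moved the median gene by -0.58. Ephb3 (chromosome 16, 21204755 to 21223305), its partner at the crypt bottom, stood at 7.70 in PID+ against 7.61 in PID- cells, for a log2 change of 0.02, with intervals from 1.22 to 14.2 and from 1.73 to 13.5. Chromosome 16 had a median log2 change of -0.50 over 277 genes, and chromosome 4 one of -0.31 over 560 genes, so both receptors were higher than the typical gene of their chromosome, by 0.52 for Ephb3 and 0.75 for Ephb2. Whether the chromosome medians come from copy number was not tested.

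Ephb4, the receptor of ephrin-B2 in veins and also a gene of the crypt epithelium, was the most abundant EphB receptor, with 58.7% of the EphB sum in PID+ and 55.3% in PID- cells. It measured 19.2 FPKM in PID+ cells (interval 7.41 to 31.0) and 17.3 FPKM in PID- cells (interval 6.68 to 27.9), for a log2 change of 0.14. Zan overlaps Ephb4 in the annotation, and their reads cannot be told apart where they share bases. Ephb6 (ENSMUSG00000029869.7, chromosome 6, 41605482 to 41620509), whose kinase domain is inactive, stood apart from the other receptors of its class. It measured 0.936 FPKM in PID+ cells (interval 0 to 2.20) and 3.04 FPKM in PID- cells (interval 0.0421 to 6.04), for a log2 change of -1.06, and -1.60 with a pseudocount of 0.1. Genes on its chromosome had a median of 0.34 in the opposite direction, and relative to them Ephb6 was at -1.41. Ephb1, mainly a receptor of neurons, was listed at 0.00445 in PID+ against 0.0129 in PID- cells, an estimated 1.37 and 5.42 reads, so that no fold is given for it.

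Epha2 encodes a receptor that is abundant in many epithelial tumors, and it was the most abundant gene of the whole family in both conditions. Epha2 (ENSMUSG00000006445.3, chromosome 4, 141301240 to 141329384) measured 168 FPKM in PID+ cells (interval 70.6 to 266) and 112 in PID- cells (interval 49.2 to 175). It ranked at 442 in PID+ against 711 in PID- cells among the 21959 genes. The log2 change was 0.58 as deposited and -0.040 with Gapdh set equal, or 0.54 relative to the median gene under that scaling. It held 68.9% of the FPKM of all 14 Eph receptors in PID+ and 69.8% in PID- cells, a share on which the conditions hardly differed. Efna1 (chromosome 3, 89271733 to 89281142), which encodes its ligand ephrin-A1, had 11.8 in PID+ against 12.2 in PID- cells, with intervals from 1.29 to 22.3 and from 1.43 to 22.9. Its log2 change was -0.04. Ligand over receptor was 0.0702 in PID+ against 0.109 in PID- cells, so the receptor's FPKM was far above that of this ligand in both.

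Of the other 12 genes of the family 5 could reach 3-fold, and 1 was past it higher and 0 past it lower, beside 2.08% and 3.42% over the table. This was Epha1, which encodes an epithelial receptor of the intestine and skin, with 20.9 FPKM in PID+ cells (interval 0.742 to 41.1) and 3.14 in PID- cells (interval 0 to 9.21). Its log2 change was 2.40, it stayed past 3-fold under each scaling that was tried, and its intervals overlapped. Epha1 made up 9.90% of the EphA sum in PID+ and 2.43% in PID- cells. Zyx overlaps it in the annotation. Epha4, a receptor that binds ligands of both types, had 18.1 in PID+ against 12.1 in PID- cells, and Epha7 had 4.08 and 1.96. Epha3, Epha8 and Epha10 were listed at 0 in both conditions, and Epha5 and Epha6 were below 0.03. Among the A-type ligands Efna5 had 11.8 and 9.95, Efna4 6.30 and 4.63, Efna3 1.38 and 1.05, and Efna2 0.443 and 0.523, each in PID+ and PID- cells in turn. The summed EphA receptors were at 211 in PID+ against 129 in PID- cells, and the ratio of these sums was 1.63 as deposited and 1.06 with equal Gapdh. The summed A-type ephrins were at 31.7 and 28.3, a ratio of 1.12 that became 0.725 with equal Gapdh.

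**Figure D3:**
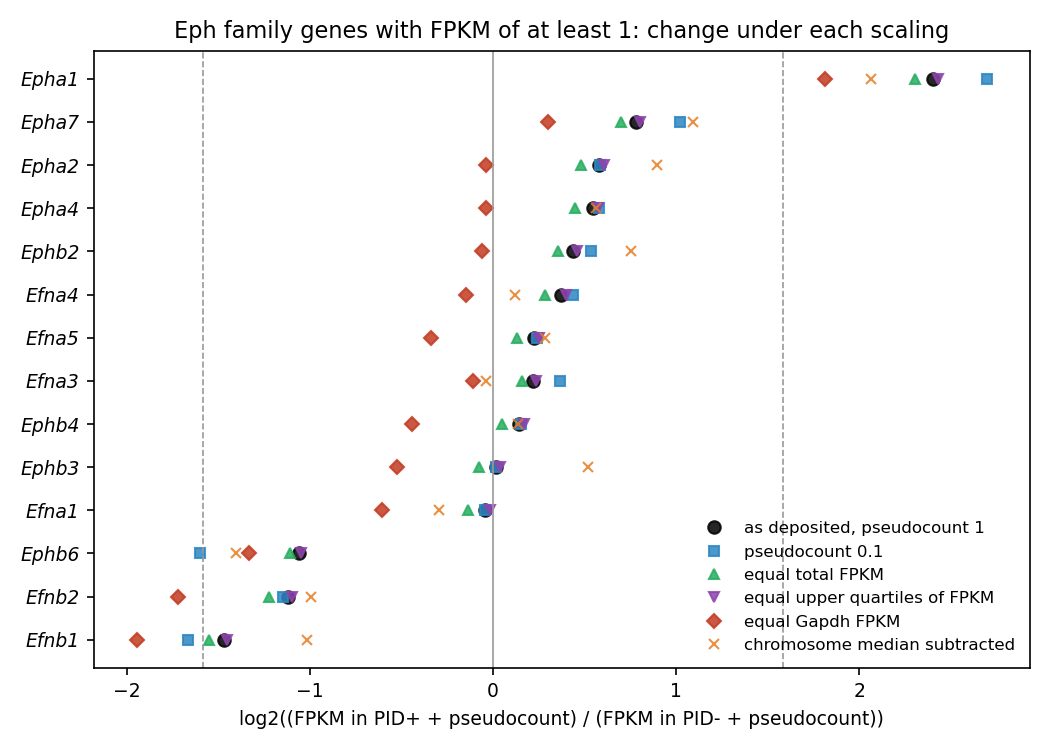
Log2 change (PID+ over PID- cells) of the 14 family genes that reached 1 FPKM in a condition, 8 of them among the 10 genes described, under the deposited scaling and each alternative. Dashed lines mark 3-fold: Efnb1, Efnb2 and Ephb6 lie left of 0 and Epha1 right of the dashed line under every alternative, while most of the others cross 0 when Gapdh is set equal, which moves the median gene by -0.58.

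Most changes of direction came with equal Gapdh, a scaling that lowers every expressed gene in PID+ cells, and low genes less on the FPKM + 1 scale. Gapdh itself, an enzyme of glycolysis that is often used for scaling, measured 2570 FPKM in PID+ against 1666 in PID- cells, and setting it equal shifted the median log2 change of the 9341 genes averaging 5 FPKM or more by -0.58. With this scaling Efnb1 was at -1.95 and Efnb2 at -1.72, past 3-fold, and relative to the shifted median they were at -1.36 and -1.14. Ephb6 was at -1.33 with this scaling and at -0.75 relative to the shifted median, short of 2-fold. Ephb2 (0.52), Ephb3 (0.06), Ephb4 (0.14) and Epha2 (0.54) lay above that median, which follows from their deposited values, since subtracting the shift undoes the scaling for expressed genes. Of the genes at least 3-fold away from equal, 229 were higher and 377 lower as deposited, and 76 were higher and 662 lower with Gapdh set equal. With the median of chromosome 8 subtracted, Efnb2 was at -0.995 and just short of 2-fold. Equal total FPKM and equal upper quartiles left Efnb1, Efnb2 and Ephb6 between 2-fold and 3-fold lower.

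Of 38 signalling partners of Eph receptors and ephrins, 37 could reach 3-fold, and 1 was past it higher in PID+ cells and 2 past it lower, beside 2.08% and 3.42% over the table. Fyn, a Src family kinase that is recruited by Eph receptors and ephrin-B clusters, measured 0.591 FPKM in PID+ cells (interval 0 to 1.70) and 14.6 in PID- cells (interval 4.25 to 24.95), for a log2 change of -3.29. Grb10, an adaptor that can bind activated EphB1, had 0.248 (interval 0 to 0.747) and 9.88 (interval 3.44 to 16.3), for a log2 change of -3.12. For these 2 genes the intervals were apart. Grb7, a related adaptor, moved the other way, with 26.8 FPKM in PID+ against 7.54 FPKM in PID- cells, and a log2 change of 1.71 that was under 3-fold with Gapdh set equal, and its intervals overlapped. The other Src family kinases of the list, Src with 54.0 and 43.3 and Yes1 with 26.5 and 33.7, were higher than Fyn in both conditions. Rac1, the GTPase that acts on Paks, was the most abundant partner, at 618 in PID+ against 460 in PID- cells. Pak1 was at 17.6 and 23.4 and Pak2 at 39.5 and 52.6. The table holds no row for the PID transgene, so the labels could not be checked on it. The median log2 change of the 38 partners was -0.06, beside 0.00 for all genes.

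The set was named after the crypt, so the genes that β-catenin drives there were read beside it. Of 15 such targets 12 could reach 3-fold, and 0 were past it higher in PID+ cells and 4 past it lower, beside 2.08% and 3.42% over the table. Notum, a secreted enzyme that inactivates Wnt ligands, measured 0.656 FPKM in PID+ against 29.0 FPKM in PID- cells, for a log2 change of -4.18. Nkd1, an inhibitor of the pathway, had 0.103 and 11.8, for a log2 change of -3.54. For both the intervals were apart. Lgr5, the marker of crypt base stem cells, had 0.755 and 6.27, for a log2 change of -2.05, and Axin2, a feedback inhibitor, had 18.1 and 59.6, for a log2 change of -1.66. The intervals of Lgr5 and Axin2 overlapped. Ephb2 and Ephb3, themselves β-catenin targets, had log2 changes of 0.44 and 0.02. Over the whole list 12 of the 15 targets were below 0 and 3 above, beside 8726 below and 9001 above over all genes. At 2-fold, 5 targets were lower and 1 higher, beside 7.03% lower and 6.16% higher among the genes of the table that could reach 2-fold. The most abundant target was Cd44 in PID+ cells, at 488 against 231, and Ccnd1 in PID- cells, at 300.03 against 373 in PID+ cells. The median over the 15 targets was -0.54, beside 0.00 for all genes, and -0.41 over the 10 targets averaging 5 FPKM or more. Below an FPKM of 1 were 6 of the 15 in PID+ and 3 in PID- cells.

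Of 12 genes of differentiated colon and intestine 5 could reach 3-fold, and 1 was past it higher and 1 past it lower, beside 2.08% and 3.42% over the table. Ceacam1, an adhesion molecule of the apical surface, was higher, with 66.3 FPKM in PID+ against 10.4 in PID- cells, for a log2 change of 2.56 with intervals apart. Car1, a carbonic anhydrase of colonocytes, was the lower gene, listed at 0 in PID+ cells and had 5.55 in PID- cells (interval 0 to 12.4). The most abundant gene was Krt20 in PID+ cells, at 158 against 73.5, and Car2 in PID- cells, at 169 against 113 in PID+ cells. In both conditions 7 of the 12 were below an FPKM of 1, and the median log2 change of the list was 0.04, beside 0.00 for all genes, and 0.88 over the 4 genes averaging 5 FPKM or more.

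The labelled tissue was checked on markers. Of 11 markers of intestinal epithelium, 3 were below an FPKM of 1 in PID+ against 2 in PID- cells, and the list summed to 8928 in PID+ against 4921 in PID- cells. Krt18 was the most abundant in PID+ cells at 2843 against 1199, and Krt19 in PID- cells at 2073 against 2469 in PID+ cells. Epcam stood at 401 in PID+ against 124 in PID- cells, for a log2 change of 1.68. Cldn7 had 274 and 79.4, for a log2 change of 1.77. Both were at least 3-fold higher, 2 of the 9 markers that could reach the fold, beside 2.08% over the table. The intervals of both overlapped, and both were under 3-fold with Gapdh set equal, which divides the PID+ values by 1.54. Of the markers that define the intestine among epithelia, Cdx1 was listed at 0 in both conditions and Vil1 was at 0.175 and 0.0614. Cdx2 had 0.542 in PID+ against 8.04 in PID- cells, and Cdh17 had 1.67 and 25.9. Both were at least 3-fold lower, 2 of the same 9 markers, beside 3.42% over the table. The intervals were apart for Cdh17 and overlapped for Cdx2. Keratins and junction genes thus marked both conditions as epithelial, whereas Cdx2 and Cdh17 were above an FPKM of 5 in PID- cells only. The median log2 change of the 11 markers was 0.25, and that of the 7 averaging 5 FPKM or more was 1.12.

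Ephrin-B1 and ephrin-B2 are also made by fibroblasts and vessels, and the markers of those cells were read beside the ephrin changes. Of 9 fibroblast markers 5 could reach 3-fold and 4 were past it lower in PID+ cells, beside 3.42% over the table, and their list summed to 3.07 in PID+ against 36.2 in PID- cells. The 4 were Col1a2 (0.0654 and 11.9), Col1a1 (2.32 and 11.9), Col3a1 (0.339 and 6.35) and Dcn (listed at 0 and 2.39), and Lum was listed at 0 in both conditions. The intervals were apart for Col1a2 and overlapped for Col1a1, Col3a1 and Dcn. Col1a1 was the most abundant in PID+ and Col1a2 in PID- cells, and the median log2 change of the list was -1.53, or -2.52 with a pseudocount of 0.1 and -2.77 over the 2 genes averaging 5 FPKM or more. These markers were lower together with Efnb1, Efnb2 and Ephb6, and their part in those results was not tested. The 10 endothelial markers summed to 4.41 in PID+ against 1.66 in PID- cells. Kdr was the most abundant at 3.33 and 1.01, and Cldn5 was listed at 0. In both conditions 9 of these markers were below an FPKM of 1, and the part of endothelial cells in the Efnb2 result was not tested. Their median log2 change was 0.01. Of 5 smooth muscle markers 2 could reach 3-fold and 1, Actg2, was past it lower (0.28 and 3.06), and the list summed to 5.03 and 13.1 with Acta2 the most abundant at 4.39 and 9.76 and a median log2 change of -0.02, with Acta2, the 1 gene averaging 5 FPKM or more, at -0.998. The 8 immune markers summed to 21.96 and 17.2, nearly all of it from Cd68 at 21.8 and 16.8, and Cd3e was listed at 0 in both conditions, with a median of 0.00 for the list.

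Promoter sequences of 9 of the 10 genes were in the reference table (RefSeq, GRCm38.p6, from 250 bases before to 50 after the start), with 2 windows for Efna1 and none for Efnb3. The words searched, on both strands, were ATCAAAG and AACAAAG (TCF/LEF), CACCTG (an E-box) and GGGCGG (a GC box), of which none contains another. None of the 10 windows held either TCF/LEF word, beside 9.33% of all 32851 promoters of the table that held at least 1 of them, so a window without them is the common case. CACCTG stood in the windows of Ephb2 and Efnb2, beside 20.2% of all promoters. GGGCGG stood in those of Ephb3, Ephb4, Ephb6, Efnb2 and Epha2 and in both of Efna1, beside 35.7% of all promoters, with 5 matches in Ephb6 and 4 in Ephb4. The windows were rich in CpG, from 10 in Epha2 to 35 in Efnb2, beside a median of 7 over all promoters. A match is a description of letters and not a binding site. The sequences before the start are shown for the 3 genes that were at least 2-fold lower together, with capitals for CACCTG and GGGCGG on either strand (CAGGTG and CCGCCC on the strand shown). They lie at chrX:99135811-99136060 (+ strand), chr8:8661243-8661492 (- strand) and chr6:41605261-41605481 (+ strand), each 5′ to 3′, and stop before the earlier of the RefSeq and Gencode starts.
Efnb1: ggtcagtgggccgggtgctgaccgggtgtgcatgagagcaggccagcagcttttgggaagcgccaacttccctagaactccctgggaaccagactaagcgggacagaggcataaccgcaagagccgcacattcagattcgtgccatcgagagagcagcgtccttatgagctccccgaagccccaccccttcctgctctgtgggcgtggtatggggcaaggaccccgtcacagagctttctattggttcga
Efnb2: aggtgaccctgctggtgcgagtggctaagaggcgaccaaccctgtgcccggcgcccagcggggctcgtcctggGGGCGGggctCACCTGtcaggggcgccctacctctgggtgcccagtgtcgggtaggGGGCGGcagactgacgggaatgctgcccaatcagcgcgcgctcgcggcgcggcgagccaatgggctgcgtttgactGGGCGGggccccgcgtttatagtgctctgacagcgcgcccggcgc
Ephb6: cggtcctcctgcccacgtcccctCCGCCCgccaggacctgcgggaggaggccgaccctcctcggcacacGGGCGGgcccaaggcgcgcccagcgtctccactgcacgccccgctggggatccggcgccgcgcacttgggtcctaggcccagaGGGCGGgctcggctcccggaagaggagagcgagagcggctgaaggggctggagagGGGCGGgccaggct
The 3 sequences share no word of the search: Efnb1 held none, Efnb2 held 1 E-box word and 3 GC box words, and Ephb6 held 5 GC box words in its window, 4 of them in the stretch shown.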

How the data were processed

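RNA of 3 PID+ and 3 PID- samples was sequenced after poly(A) selection with a TruSeq V2 kit. The authors removed adapters with cutadapt, aligned reads to GRCm38.p3 and its protein coding annotation with TopHat and Bowtie2, pooled the read sets within each condition and deposited the FPKM that CuffDiff gave, with the bounds of its intervals. The table's treated condition was read as PID+ and its untreated condition as PID-, after the treatments in the labels. The deposited interval bounds are in the same unit and cover CuffDiff's error model only.

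The table held 21966 genes, of which 7 had a status other than OK in a condition and were left out. Tests had been planned in case the table held values per sample, which it did not, so no test was run. A change is the log2 ratio of FPKM + 1 between the conditions, PID+ over PID-, and a gene counted as called at 3-fold on that scale. The fold is the one of the study's heatmap, for which no pseudocount is stated. A gene can reach 3-fold with an FPKM of at least 2 in a condition, and 2-fold with at least 1. The FPKM worth of 1 read came from genes that have 1 transcript: with a length correction of 180 bases, the best of 31 tried, 90.1% of 715 values in PID+ and 91.8% of 706 in PID- cells were within 0.1 of a whole number, against 20% for values without steps. Reads of single genes were taken from the longest transcript and are approximate. Positions and overlapping genes came from Gencode M21. Chromosome medians used genes averaging 5 FPKM or more.

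The members and lists were chosen with earlier results of these data known. Named genes are the 10 genes, the rest of the family and, of the other lists, genes past 3-fold and the most abundant gene; Src, Yes1, Pak1, Pak2, Vil1, Cdx1, Gapdh, genes listed at 0 and overlapping genes were named outside this rule. The alternatives changed the pseudocount (0.1), the scaling (total FPKM, upper quartile or Gapdh set equal, or chromosome medians subtracted), the filter (none, or a mean of 5 FPKM or more) and the call (2-fold, or intervals apart). The steps were tested on simulated data. Python 3.11.15, numpy 2.4.6, pandas 2.3.3 and matplotlib 3.10.9 were used.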

Additional observations from a re-analysis of the deposited data

How the results depend on the processing

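The log2 changes of the 10 genes were computed under 5 alternatives, and of the 50 values 40 kept the direction and the side of 3-fold. Direction changed for Ephb2 (-0.060), Ephb3 (-0.52), Ephb4 (-0.44) and Epha2 (-0.040) with equal Gapdh, which moved the median gene by -0.58. Relative to that shifted median these genes were at 0.52, 0.06, 0.14 and 0.54. This follows from their deposited values, since subtracting the shift undoes the scaling for expressed genes, and is no separate check of their direction. The sign also changed for Ephb3 (-0.075) with equal total FPKM, and for Ephb1 (0.076, at the floor) with chromosome medians subtracted. Past 3-fold lower were Ephb6 (-1.60) and Efnb1 (-1.66) with a pseudocount of 0.1, and Efnb1 (-1.95) and Efnb2 (-1.72) with equal Gapdh; the cause was not tested. The count of the 10 genes at least 3-fold lower was thus 0 as deposited, 2 under each of these settings and 3 at 2-fold. Over all genes 229 were higher and 377 lower, against 621 and 795 with a pseudocount of 0.1, 76 and 662 with equal Gapdh, 144 and 221 at a mean FPKM of at least 5, 726 and 828 at 2-fold, and 41 and 119 with intervals apart. Other family genes at least 3-fold higher went from 1 (Epha1) to 0 with intervals apart. Partners at least 3-fold higher went from 1 to 0 with equal Gapdh and with intervals apart, and to 3 at 2-fold. For β-catenin targets, higher went from 0 to 1 at 2-fold, and lower from 4 to 2 with intervals apart. For differentiated genes, higher went from 1 to 2 with a pseudocount of 0.1 and at 2-fold, and lower from 1 to 0 at a mean FPKM of at least 5 and with intervals apart. List medians moved by more than 1.5-fold at a mean FPKM of at least 5 for differentiated genes (0.88), intestinal epithelium (1.12), fibroblast (-2.77) and smooth muscle (-0.998) markers, and with a pseudocount of 0.1 for fibroblast markers (-2.52); fewer genes enter the former. The other 179 values moved by less than these limits. Leaving out each replicate was not possible, since the values are pooled per condition, so a single line could account for any difference without being seen. Endothelial markers had no gene with a mean FPKM of at least 5.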
